A study of Mus musculus with 4 samples.

Results

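The *Saa3*-high de-differentiated fat (DFAT) cells are the cells with the largest share of *Saa3* molecules in 2 cultures of DFAT cells, 1 from inguinal (iWAT) and 1 from epididymal (eWAT) white adipose tissue. Barcodes with 5000 to 75000 unique molecular identifiers (UMIs, each 1 captured RNA molecule), 200 to 7500 genes and under 10% mitochondrial UMIs were taken as cells. In each library the 10% with the highest ratio of *Saa3* UMIs to all UMIs were the members, 763 of 7629 iWAT DFAT cells and 646 of 6464 eWAT DFAT cells. They make 1409 of the 28262 cells within these limits in the whole series. The members were thus chosen by their measured *Saa3* level. They were compared with the 50% of cells of the same library with the lowest ratio, here called *Saa3*-low cells, 3814 in iWAT and 3232 in eWAT.

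DFAT cells were obtained by ceiling culture, in which floating adipocytes attach to the upper wall of a filled flask and lose their lipid. The source was adipose tissue of male chow-fed C57BL/6J mice. Cells of the stromal vascular fraction (SVF) of the same depots, kept in primary culture, gave 2 further libraries. Cells of all 4 cultures were trypsinised, sorted with the dead-cell stain 7-AAD and run on the 10x Genomics 3′ platform. The age of the mice, and whether animals were pooled, were not given in the sources used here. With 1 library per depot and culture there was no replicate and no test. The intervals below are exact 95% intervals for counting error only, and cells of 1 library share their culture and capture.

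Serum amyloid A3, the product of *Saa3*, is an acute phase protein that is made in mouse mainly outside the liver, by adipose tissue and macrophages among others. Acute phase genes are switched on in many cell types by the NF-κB, C/EBP and STAT factors that act downstream of interleukin 1, tumour necrosis factor and interleukin 6. The marker genes given with the cells are *Saa3*, *Serpina3n*, which encodes a serine protease inhibitor of the acute phase, and *Chl1*, which encodes a neural cell adhesion molecule of the L1 family.

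The 250 bases before the RefSeq start (GRCm38.p6, the build mm10 of the counts) were read for the genes that lead the description below, since motifs of those 3 factor families can be looked up there. Of the 13 genes named as higher, 7 were matched in the promoter table, which were *Saa3*, *Serpina3n*, *Chl1*, *Lcn2*, *C3*, *C1qtnf7* and *Igfbp4*. The C/EBP motif TTGCNNAA, searched on both strands, was in 3 of the 7, namely *Saa3*, *Lcn2* and *C3*, and in 9.56% of all 32851 promoters. The windows of *Lcn2* and *Chl1* lie wholly inside their GENCODE genes, which start further upstream. The *Lcn2* motif is therefore within the GENCODE gene. The 7 genes are few and were chosen from these data, so no excess over all promoters is read from 3 of 7. The STAT motif TTCNNNGAA was in 1 of the 7, *C1qtnf7*, and in 7.02% of all promoters. The NF-κB motif was in 0 of the 7 and in 3.90% of all promoters, which says only that its letters are not in these windows. Of the 8 genes named as lower, 1, *Hmga2*, was matched, and it held none of the 3 motifs. The promoters of *Saa3* and *C3* are shown because both genes are leading transcripts of the members, and capitals mark the C/EBP motif. It begins 99 bases before the RefSeq start of *Saa3* and 45 bases before that of *C3*. The *Saa3* sequence stops before the GENCODE start, which lies 24 bases further upstream.
Saa3, chr7:46715701-46715926, minus strand: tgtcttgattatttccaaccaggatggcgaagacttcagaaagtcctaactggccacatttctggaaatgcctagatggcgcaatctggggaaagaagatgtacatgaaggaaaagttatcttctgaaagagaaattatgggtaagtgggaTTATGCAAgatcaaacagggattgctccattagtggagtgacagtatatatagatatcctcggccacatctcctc
C3, chr17:57228137-57228386, minus strand: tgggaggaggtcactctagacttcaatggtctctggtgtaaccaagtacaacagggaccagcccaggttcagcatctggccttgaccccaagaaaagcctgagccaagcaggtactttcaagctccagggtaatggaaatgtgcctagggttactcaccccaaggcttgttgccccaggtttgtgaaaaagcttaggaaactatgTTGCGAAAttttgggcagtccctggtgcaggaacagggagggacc

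*Saa3* chose the members, so its level is a description. In iWAT a *Saa3* UMI was found in nearly all cells: the median cell had 688 *Saa3* counts per 1e+06 UMIs (CPM), and 467 cells (6.12%) had none. Such counts include any UMIs from free RNA, which is described below. In eWAT the median cell had 0 CPM, and 3322 cells (51.4%) had none. The median member had 19107 CPM in iWAT (quartiles 14561 and 26293) and 4491 CPM in eWAT (2194 and 11055). The lowest member and the highest cell left out were at 11635 and 11622 CPM in iWAT and at 1144 and 1141 CPM in eWAT, so the limit lay about an order of magnitude lower in eWAT. The top cells were alike, at 93727 CPM in iWAT and 97472 CPM in eWAT, so *Saa3* gave up to 9.37% and 9.75% of the UMIs of 1 cell. The members held 52.0% of all *Saa3* UMIs of the iWAT cells and 91.4% of those of the eWAT cells. In the *Saa3*-low cells, summed *Saa3* was at 156 CPM in iWAT and at 0 in eWAT, where they were drawn from cells without a *Saa3* UMI.

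**Figure D1:**
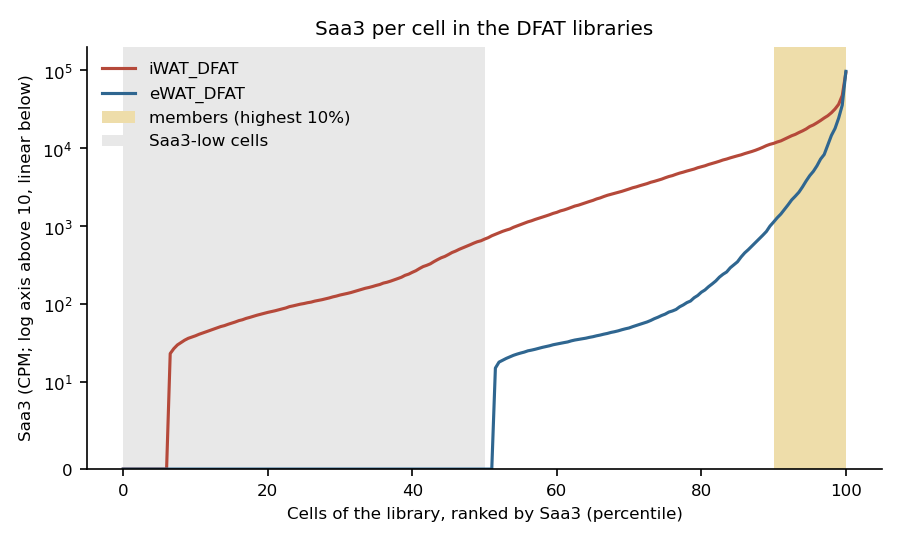
*Saa3* per cell (CPM, log axis above 10 and linear below) against the percentile of the cell in its library, for the 7629 iWAT and 6464 eWAT DFAT cells. Grey marks the *Saa3*-low cells and yellow the members. The iWAT curve climbs over nearly all percentiles, whereas the eWAT curve stays at 0 up to percentile 51 and climbs steeply near the members.

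The members were shallower than the *Saa3*-low cells. Their median was 16924 UMIs against 25241 in iWAT and 21447 against 26658 in eWAT. The nuclear RNA *Malat1* gave 1.13% of UMIs against 0.633% in iWAT and 0.640% against 0.533% in eWAT, and mitochondrial UMIs gave 3.21% against 3.06% and 2.21% against 1.89%. With each cell thinned to 5000 UMIs the log2 ratio of *C3*, described below, was 3.20 in iWAT and 3.597 in eWAT, against 3.21 and 3.26 with all UMIs, and with the *Saa3*-low cells weighted to the depth of the members it was 2.84 and 3.23. *Saa3* was at 3518 CPM in the iWAT droplets with 1 to 100 UMIs, which hold free RNA, and at 1019 CPM in those of eWAT. The iWAT *Saa3*-low cells would reach their *Saa3* level if 4.45% of their UMIs were free RNA, and the eWAT *Saa3*-low cells were at 0 because they were drawn from cells without a *Saa3* UMI. Endothelial cells were read as a possible measure of background. Of these, 6 of 16 in iWAT (37.5%) and 29 of 116 in eWAT (25%) had a *Saa3* UMI, at median depths of 16524 and 9857 UMIs. Of all cells, 93.9% and 48.6% had one, at median depths of 22111 and 27425. Whether the endothelial *Saa3* UMIs came from free RNA or from the cells was not tested. The shares of all iWAT and eWAT cells with a *Saa3* UMI are read here with these values in mind. The eWAT member with the lowest *Saa3* ratio had 29 *Saa3* UMIs. Of the 116 eWAT endothelial cells 3 were themselves members, the highest at 13880 CPM, and all 116 together were at 437 CPM. The 16 iWAT endothelial cells held 0 members and were together at 31.2 CPM.

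The other marker genes differed in weight between the depots. *Serpina3n* was at 318 CPM in iWAT members and 24.2 CPM in the iWAT *Saa3*-low cells, and at 23.7 and 0.436 CPM in eWAT. Its log2 ratio was 3.72 (3.65 to 3.79) in iWAT and 5.77 (5.29 to 6.28) in eWAT. *Chl1* was at 451 against 14.9 CPM in iWAT and at 22 against 0.269 CPM in eWAT, with log2 ratios of 4.92 (4.84 to 5.00) and 6.36 (5.76 to 7.02). The eWAT ratios are the larger, but they rest on few cells. A *Serpina3n* UMI was found in 88.1% of iWAT members and 23.5% of eWAT members, and a *Chl1* UMI in 73.0% and 10.1%, the latter being 65 cells. After thinning to 5000 UMIs per cell, 55.8% of iWAT members and 4.82% of the iWAT *Saa3*-low cells had a *Chl1* UMI, and in eWAT 6.50% and 0.0928%. With the *Saa3*-low cells weighted to the depth of the members, the iWAT log2 ratios were 2.93 for *Serpina3n* and 4.00 for *Chl1*. UMIs of *Serpina3n* and *Chl1* were thus found in most iWAT members and in a minority of the eWAT members.

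Among genes at 5 CPM or more over all cells, 1232 of 10013 (12.3%) were at least 1.5-fold higher and 1693 (16.9%) at least 1.5-fold lower in iWAT members than in the *Saa3*-low cells. In eWAT 833 of 9816 (8.49%) were higher and 292 (2.97%) lower. Of the 9445 genes measured in both libraries, 537 (5.69%) were higher in both and 168 (1.78%) lower in both. The 537 genes make 55.1% of the 975 such genes higher in iWAT and 69.4% of the 774 higher in eWAT. The 168 genes make 10.1% of the 1657 lower in iWAT and 80.0% of the 210 lower in eWAT. The 5 CPM limit was read over all cells of a library, members included, so a gene can pass it through its level in members. The shares above are the background for the lists below. The rule chose cells on *Saa3* in these same libraries, and every gene of those cells is counted as used by it, so they are descriptions of the members and nothing is read from them about the lists.

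Of genes at 20 CPM or more in both libraries, the 10 highest in members of both encode secreted proteins. *Lcn2*, for the iron-siderophore-binding lipocalin 2, was at 928 against 44.1 CPM in iWAT and 954 against 44.5 CPM in eWAT, log2 ratios of 4.39 (4.35 to 4.44) and 4.42 (4.37 to 4.47). *Hp*, for the haemoglobin-binding haptoglobin, was at 596 against 44.2 CPM and 1811 against 145 CPM, ratios of 3.75 and 3.64. *Enpp2*, for autotaxin, the enzyme that makes lysophosphatidic acid, was at 243 against 17.8 CPM and 123 against 9.41 CPM, ratios of 3.77 and 3.70. The summed levels of *Lcn2* were thus nearly the same in the members of both depots, although their *Saa3* levels were not. In the members with fewer than 3 adipocyte markers, described below, *Lcn2* was at 772 CPM in iWAT and 643 CPM in eWAT.

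*C3*, for the central complement component, was at 972 against 105 CPM in iWAT and 415 against 43.4 CPM in eWAT, ratios of 3.21 and 3.26. *Serping1*, for the C1 inhibitor, was at 815 against 107 CPM and 301 against 41.7 CPM, and *Cp*, for the copper-carrying ferroxidase ceruloplasmin, at 151 against 22.8 CPM and 216 against 34.1 CPM. *Apoe*, for apolipoprotein E, was at 90.7 against 12.4 CPM and 268 against 16.4 CPM. *C1qtnf7*, for a C1q and TNF related protein, was at 161 against 21.9 and 106 against 19.6 CPM, and *Igfbp4*, for an IGF-binding protein, at 108 against 22.8 and 121 against 20.9 CPM. The matrix proteoglycan decorin, *Dcn*, was the most abundant of them, at 4391 against 905 CPM in iWAT and 923 against 167 CPM in eWAT.

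Within the members these genes were detected to different extents. A UMI of *C3* or *Serping1* was found in 99.7% of iWAT members, of *Lcn2* in 87.0% and of *Hp* in 84.7%, but of *C1qtnf7* in 61.6%, of *Igfbp4* in 43.6% and of *Apoe* in 29.8%. In eWAT the shares were 93.2% for *C3*, 87.5% for *Serping1*, 81.1% for *Lcn2*, 80.0% for *Hp*, 58.2% for *Apoe*, 56.8% for *Igfbp4* and 45.8% for *C1qtnf7*. In iWAT 92.9% of members lay above the 90th percentile of the *Saa3*-low cells for *C3*, whose per-cell median was 823 CPM in members and 59.0 CPM in the *Saa3*-low cells.

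**Figure D2:**
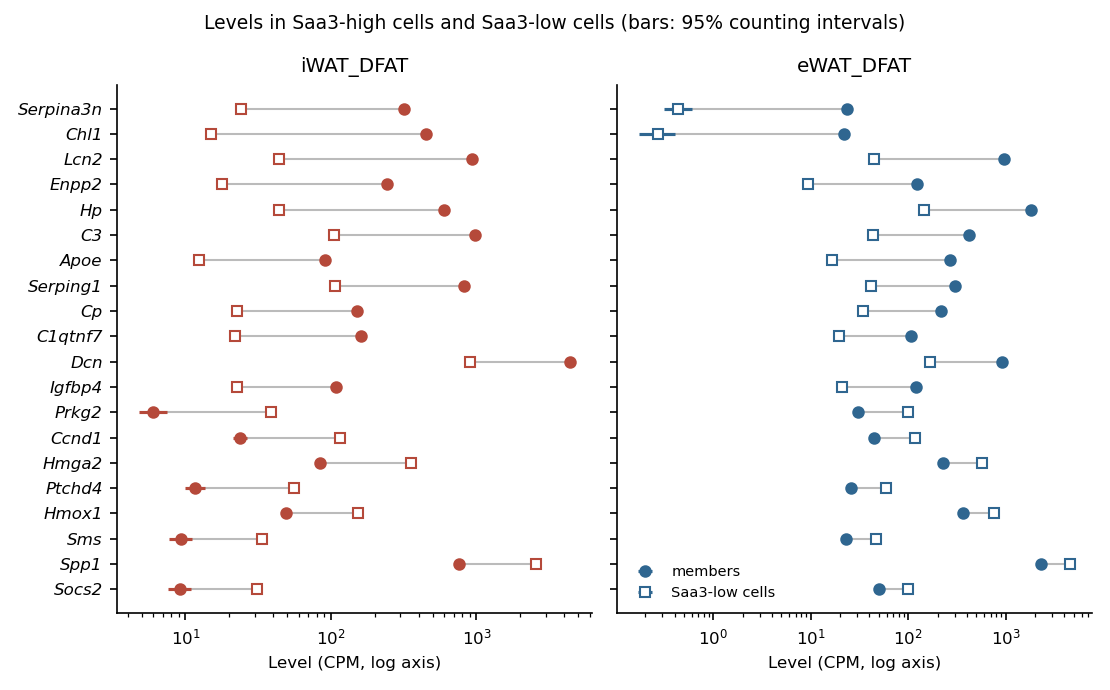
Summed level (CPM, log axis) of *Serpina3n*, *Chl1* and the 10 highest and 8 lowest genes of members in both libraries, in members (filled circles) and in the *Saa3*-low cells (open squares), with exact 95% counting intervals. The left panel is iWAT DFAT and the right panel eWAT DFAT. The order of the pairs turns between *Igfbp4* and *Prkg2* in both panels, and *Serpina3n* and *Chl1* are under 1 CPM in the eWAT *Saa3*-low cells.

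The 8 genes lowest in members of both libraries had varied roles. *Prkg2*, for a cGMP-dependent kinase, was at 6.02 CPM in members and 38.7 CPM in the *Saa3*-low cells of iWAT and at 30.8 and 99.4 CPM in eWAT, log2 ratios of -2.68 and -1.69. *Ccnd1*, for the G1 regulator cyclin D1, was at 23.6 CPM in members and 116 CPM in the *Saa3*-low cells of iWAT and at 44.4 and 116 CPM in eWAT, log2 ratios of -2.29 and -1.39. *Hmga2*, for a chromatin protein of proliferating mesenchymal cells, was at 84.0 against 356 CPM and 227 against 577 CPM. *Spp1*, for the secreted phosphoprotein osteopontin, was abundant in both groups, at 758 against 2559 CPM in iWAT and 2315 against 4597 CPM in eWAT. *Hmox1*, for haem oxygenase 1, was at 48.7 against 154 CPM and 365 against 766 CPM. *Ptchd4*, *Sms*, for spermine synthase, and *Socs2*, for a suppressor of cytokine signalling, completed the set with ratios from -2.25 to -1.76 in iWAT and from -1.19 to -0.99 in eWAT. All 8 ratios were further from 0 in iWAT than in eWAT.

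The levels were also read along the rank by *Saa3*. In eWAT all cells of the first 5 of 10 bins, and 90 of the 6th, had no *Saa3* UMI and were ordered by barcode alone, so no trend could show across them and the shapes of the iWAT and eWAT series are not compared. Over 10 bins of equal size of the iWAT cells ranked by *Saa3*, *C3* ran from 61.2 CPM in the lowest to 190 in the 5th, 529 in the 9th and 972 CPM in the members. In eWAT *C3* was at 50.5 CPM in the 7th bin, 75.8 in the 8th and 135 in the 9th, before 415 CPM in the members. *Dcn* ran from 673 CPM over 1389 in the 5th bin to 4391 CPM in iWAT, and was at 167 CPM in the 7th bin of eWAT, 230 in the 8th and 357 in the 9th, before 923 CPM in the members. *Hmga2* ran the other way in iWAT, from 437 CPM in the 3rd bin to 188 in the 5th and 84.0 in the members, after 411 and 417 CPM in the first 2 bins.

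**Figure D3:**
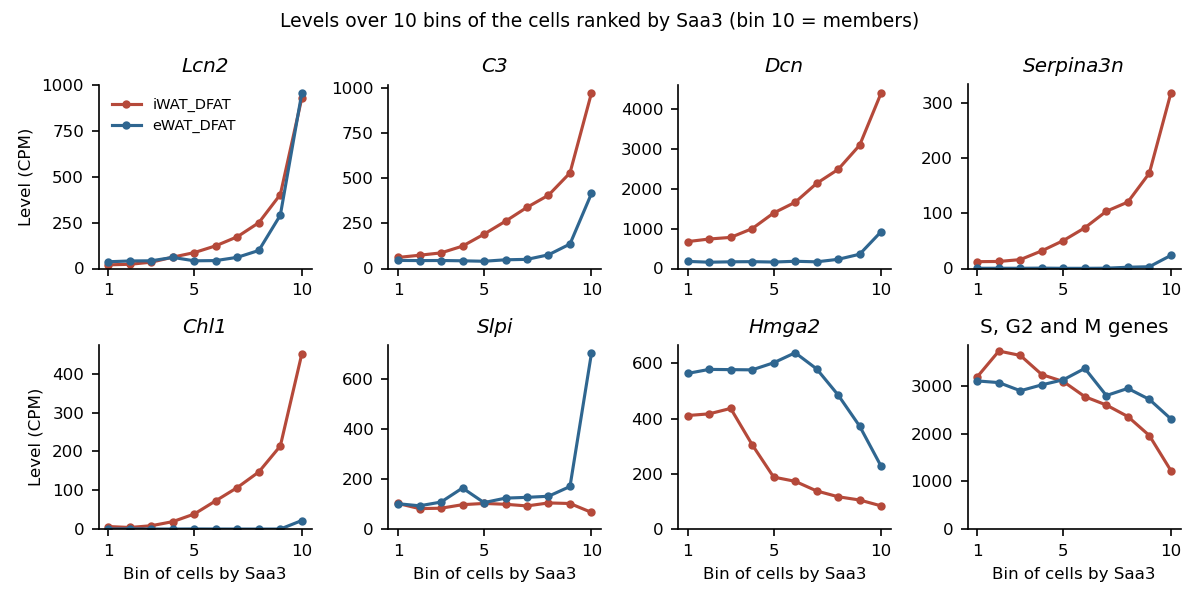
Summed levels (CPM, linear axes) of 7 genes, and of the S, G2 and M phase genes together, over 10 bins of the cells ranked by *Saa3*, where bin 10 holds the members, in iWAT DFAT (red) and eWAT DFAT (blue). The eWAT cells of bins 1 to 5 all lack a *Saa3* UMI and have no order among them, and *Slpi* is at 704 CPM in the eWAT members and 66.7 CPM in the iWAT members.

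Most acute phase and complement genes at 5 CPM or more were higher in members, and 0 were lower. Of the acute phase genes at 5 CPM or more, 15 of 15 were at least 1.5-fold higher in iWAT and 10 of 11 in eWAT, with median log2 ratios of 2.04 and 2.67, where the median over all genes was -0.07 and 0.01. The 1 eWAT gene short of the fold was *Ghr*, for the growth hormone receptor, at 184 against 130 CPM. Among the eWAT genes, *Saa1* and *Saa2* passed the 5 CPM limit through the members, where they had 1034 and 1164 UMIs. In the eWAT *Saa3*-low cells with fewer than 3 mesothelial markers they were at 0.594 and 0.157 CPM. Their place among the higher genes was thus set by that limit, and other genes may have passed it in the same way. *Mt1*, for a metal-binding metallothionein, was at 2038 against 729 CPM in iWAT and 564 against 322 CPM in eWAT. Of the complement genes 7 of 9 were higher in iWAT and 8 of 9 in eWAT, with medians of 2.93 and 2.64 and 0 lower. *Cfb*, for factor B of the alternative pathway, was at 220 against 14.3 CPM in iWAT and 87.3 against 2.42 CPM in eWAT. *C1ra*, for a protease of the classical pathway, was at 170 against 34.4 CPM and 37.6 against 7.52 CPM. *Cd55*, for a surface inhibitor that protects cells from complement, was at 16.5 against 11.8 CPM in iWAT and 21.3 against 6.66 CPM in eWAT.

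NF-κB signalling in iWAT DFAT cells was among the questions of the study. Of the NF-κB subunit and feedback genes, 13 of 18 were at least 1.5-fold higher in iWAT members and 12 of 18 in eWAT members, 10 of them in both, and 0 were lower. Their medians, 0.81 and 0.70, were smaller than those of the acute phase genes. *Tnfaip3*, for the feedback inhibitor A20, was at 229 against 67.4 CPM in iWAT and 40.8 against 12.9 CPM in eWAT, ratios of 1.77 and 1.66. *Icam1*, for an adhesion molecule that NF-κB induces, was at 24.6 against 6.12 CPM and 19.2 against 8.16 CPM. *Nfkbib* and *Ripk2*, for an inhibitor and a kinase of the pathway, had ratios of 0.29 and -0.05 in iWAT and 0.44 and 0.11 in eWAT.

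Of the IL-6 and IL-1 signalling genes 19 of 28 were higher and 2 lower in iWAT, and 13 of 24 higher and 1 lower in eWAT. *Jak2*, for a kinase of cytokine receptors, was at 322 against 91.2 CPM and 126 against 60.2 CPM. *Irak3*, for a negative regulator of IL-1 receptor signals, was at 281 against 153 CPM in iWAT and 101 against 21.5 CPM in eWAT. The 2 genes lower in iWAT members were a receptor and a ligand. *Il1rl1*, for the IL-33 receptor, was at 88.1 against 457 CPM, and *Il11*, for a cytokine of the IL-6 family, at 3.16 against 22.5 CPM.

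Chemokine genes were mixed in size. Of the CXC and CX3C genes 5 of 9 were higher in iWAT and 6 of 7 in eWAT, and of the CC genes 5 of 7 and 5 of 6, with 0 lower in either. *Cxcl12*, whose product retains leukocytes and progenitors, was at 1545 against 262 CPM in iWAT and 384 against 126 CPM in eWAT. *Cxcl16* was at 142 against 34.1 CPM and 194 against 56.3 CPM, and the eosinophil attractant *Ccl11* at 127 against 41.0 CPM and 93.2 against 18.8 CPM. The monocyte attractant *Ccl2* was high in both groups, at 3476 against 2512 CPM in iWAT, short of 1.5-fold, and 4983 against 2693 CPM in eWAT. *Cxcl14* was at 52.0 against 76.9 CPM in iWAT and 118 against 120 CPM in eWAT.

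Interferon-stimulated genes were at least 1.5-fold higher for 26 of 27 in iWAT members and 14 of 16 in eWAT members, with medians of 1.85 and 1.02. *Iigp1*, for an interferon-inducible GTPase, was at 106 against 16.3 CPM in iWAT and 23.7 against 4.73 CPM in eWAT, and *Gbp2*, for a guanylate-binding protein, at 77.8 against 14.3 CPM and 60.7 against 9.59 CPM. The 1 gene lower in iWAT was *Ifit2*, at 5.58 against 9.89 CPM. Of the MHC class I presentation genes 17 of 20 and 10 of 15 were higher and 0 lower. *Tapbp*, for tapasin, which loads peptides on class I molecules, was at 82.0 against 20.5 CPM in iWAT and 41.0 against 13.6 CPM in eWAT.

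Matrix genes were split. Of the collagen genes 11 of 18 were higher and 1 lower in iWAT, and 10 of 19 higher and 2 lower in eWAT. *Col3a1*, for the fibrillar type III collagen, was at 2671 against 652 CPM in iWAT and 998 against 216 CPM in eWAT, while *Col8a1*, for a short-chain collagen, was at 15.0 against 51.6 CPM and 61.2 against 111 CPM. Among matrix proteins and proteoglycans 14 of 32 were higher and 2 lower in iWAT and 13 of 31 and 2 in eWAT. The small proteoglycan gene *Prelp* was at 143 against 31.4 CPM and 28.5 against 4.54 CPM, and *Dpt*, for dermatopontin, at 124 against 41.3 CPM and 38.4 against 4.16 CPM.

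Cell cycle genes were described in each library, and the difference between the libraries has no replicate. In iWAT 24 of 24 S phase genes and 26 of 26 G2 and M phase genes were at least 1.5-fold lower in members, with medians of -1.49 and -1.46. In eWAT 1 of 24 and 4 of 26 were, with medians of -0.30 and -0.46. *Rrm2*, for a subunit of ribonucleotide reductase, was at 27.4 against 145 CPM in iWAT and 61.8 against 106 CPM in eWAT. *Top2a*, for the mitotic topoisomerase, was at 71.3 against 176 CPM in iWAT and 105 against 119 CPM in eWAT. With the *Saa3*-low cells weighted to the depth of the members, the iWAT medians of the S phase and the G2 and M phase genes were -0.97 and -1.12. With that weighting the log2 ratio of *Top2a* was -0.23 in place of -1.30 in iWAT and 0.12 in place of -0.17 in eWAT. Without cells that carried markers of another type, which left out 4523 eWAT cells, members and *Saa3*-low cells were picked anew. The eWAT medians were then -0.57 and -0.69. With the adipocyte and smooth muscle lists not used to remove cells, they were -0.41 and -0.53. All phase genes together were at 3201 CPM in the lowest bin of iWAT, 3741 CPM in the next and 1231 CPM in the members. With members and *Saa3*-low cells picked anew among the 50% of iWAT cells lowest in these genes, the log2 ratio of *Serpina3n* was 2.68 and that of *Chl1* 3.55. Of the arrest and p53 genes 4 of 19 were higher and 3 lower in iWAT, where 12.3% and 16.9% of all genes were. In eWAT 3 of 18 were higher and 1 lower, where 8.49% and 2.97% of all genes were. Their medians were -0.16 and -0.04, where those of all genes were -0.07 and 0.01. *Btg2*, for an antiproliferative protein, was at 738 against 401 CPM in iWAT, and *Ccnd1*, described above, was the 1 gene lower in both.

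Contractile and antioxidant genes had more members lower than higher in iWAT. Of the smooth muscle and stress fibre genes 12 of 19 were lower and 3 higher in iWAT, and 7 of 22 lower and 0 higher in eWAT. *Tagln*, for transgelin, was at 78.0 against 366 CPM in iWAT and 2623 against 3624 CPM in eWAT, and *Cnn1*, for calponin 1, at 1.69 against 6.81 CPM and 54.2 against 119 CPM. The iWAT log2 ratio of *Cnn1*, -2.01, was -0.31 without cells that carried 3 or more markers of another type, a setting that removes cells for *Cnn1* itself. It was -1.97 with the smooth muscle and adipocyte lists not used to remove cells. Members and *Saa3*-low cells were picked anew in both settings. Of the NRF2 target and glutathione genes 14 of 19 were lower and 3 higher in iWAT, and 4 lower and 3 higher in eWAT. *Gsta4*, for a glutathione transferase that clears lipid peroxidation products, was at 17.2 against 163 CPM in iWAT and 110 against 207 CPM in eWAT. *Nqo1*, for a quinone reductase, was at 28.0 against 215 CPM and 153 against 260 CPM, whereas *Gpx3*, for the secreted glutathione peroxidase, was higher, at 224 against 56.8 CPM and 64.8 against 32.6 CPM.

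Of the mature adipocyte genes 10 of 12 were higher in iWAT members and 15 of 17 in eWAT members, with medians of 1.81 and 3.09 and 0 lower. The 12 and 17 genes are different sets. Of 8 adipocyte markers, all in this list, 7 were at 5 CPM or more in eWAT members and 3 in the eWAT *Saa3*-low cells. Some genes thus passed the limit through cells other than the *Saa3*-low cells, which favours higher ratios. Without cells that carried 3 or more markers of another type, and with members and *Saa3*-low cells picked anew, the medians were 0.58 and 0.64. That setting removes cells for adipocyte genes and so lowers the medians by its construction. With the adipocyte and smooth muscle lists not used to remove cells, they were 1.86 and 3.16. The 29 iWAT and 132 eWAT members with 3 or more adipocyte markers are described below. *Plin1*, for the lipid droplet coat protein perilipin 1, was at 53.8 against 5.47 CPM in iWAT and 111 against 13.1 CPM in eWAT. *Fasn*, for fatty acid synthase, was at 53.4 against 64.1 CPM and 41.4 against 40.7 CPM. Of the adipogenic regulators 3 of 14 in iWAT and 5 of 15 in eWAT were higher, against 12.3% and 8.49% of all genes, among them *Cebpa*, an adipocyte transcription factor, at 20.5 against 11.3 CPM and 19.5 against 8.08 CPM. Without the cells that carried markers of other types, and with members picked anew, the eWAT log2 ratio of *Cebpa* was -0.20 in place of 1.27.

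The remaining 7 lists were as follows. Higher and lower in iWAT were 7 and 3 of 19 progenitor surface and secreted genes, 9 and 1 of 16 glucocorticoid-responsive genes, 1 and 4 of 10 prostaglandin genes, 5 and 11 of 25 adhesion and axon guidance genes, 3 and 1 of 10 IGF system genes, 3 and 2 of 16 ATF4 and ER stress genes and 12 and 0 of 20 immediate early genes. In eWAT the counts were 5 and 1 of 16, 7 and 0 of 16, 2 and 1 of 10, 7 and 3 of 23, 5 and 0 of 11, 1 and 0 of 15 and 6 and 0 of 20 in the same order. The medians of the glucocorticoid-responsive genes were 0.83 in iWAT and 0.35 in eWAT, and those of the immediate early genes 0.61 and 0.43. *Igf1*, for insulin-like growth factor 1, was at 56.4 against 7.11 CPM in iWAT and 60.5 against 15.5 CPM in eWAT. *Anxa3*, for annexin A3, was at 128 against 365 CPM and 258 against 411 CPM. *Epha4*, for an ephrin receptor, was at 58.6 against 11.6 CPM and 16.4 against 6.05 CPM, and the guidance cue *Sema3e* at 3.74 against 24.0 CPM and 12.4 against 33.0 CPM.

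**Figure D4:**
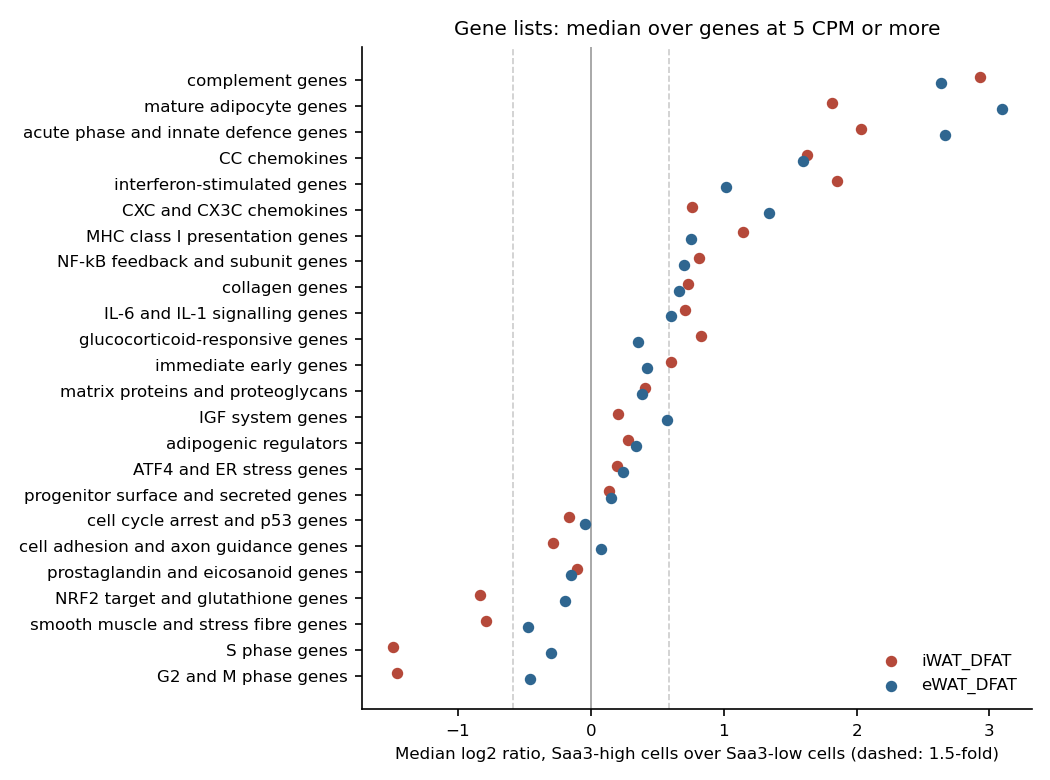
Median log2 ratio of members over the *Saa3*-low cells for 24 gene lists, over the genes at 5 CPM or more, in iWAT DFAT (red) and eWAT DFAT (blue), with dashed lines at 1.5-fold. Complement, acute phase, interferon-stimulated and mature adipocyte genes lie furthest to the right in iWAT and mature adipocyte, acute phase and complement genes in eWAT. The S phase and G2 and M phase genes lie at -1.49 and -1.46 in iWAT but at -0.30 and -0.46 in eWAT.

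Some genes differed between the depots. *Tnfaip6*, for the hyaluronan-binding protein TSG-6, was at 569 against 132 CPM in iWAT and 33.1 against 25.2 CPM in eWAT, log2 ratios of 2.11 and 0.39. *Rnf150* was at 171 against 51.3 CPM in iWAT and 40.3 against 38.5 CPM in eWAT. *Ifi27l2a*, an interferon-inducible gene, had ratios of 3.79 and 2.21. *Slpi*, for a secreted inhibitor of leukocyte proteases, was at 66.7 against 93.1 CPM in iWAT but 704 against 113 CPM in eWAT, ratios of -0.48 and 2.65. *Gsta4* and *Gm49708* were further below the *Saa3*-low cells in iWAT, with ratios of -3.25 and -3.18, than in eWAT, with -0.91 and -0.60. These differences between 2 libraries have no replicate.

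**Figure D5:**
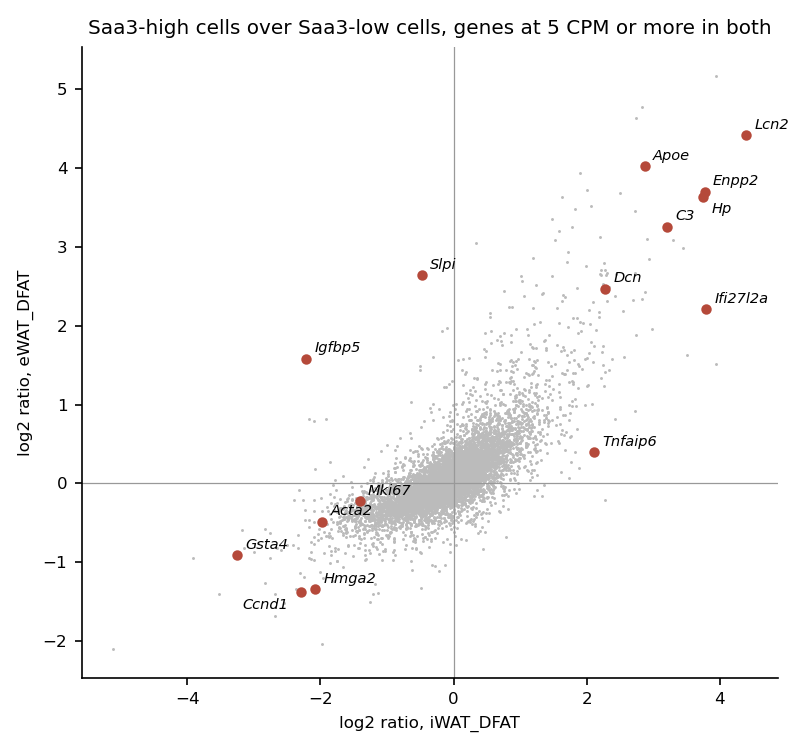
Log2 ratio of members over the *Saa3*-low cells in iWAT DFAT (x axis) and in eWAT DFAT (y axis), 1 point per gene at 5 CPM or more in both libraries, with the labelled genes in red. *Lcn2* is far out on both axes, at 4.39 and 4.42, and *Slpi*, at -0.48 and 2.65, and *Igfbp5*, at -2.22 and 1.58, lie in the upper left.

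The members were not uniform in either library. Over 4 bins of the eWAT members by *Saa3*, *Chl1* ran from 0 over 1.19 and 11.8 to 101 CPM, and *Serpina3n* from 5.70 to 71.4 CPM. *Slpi* ran from 376 to 1627 CPM and *Spp1* from 3553 down to 1431 CPM. In iWAT *Chl1* ran from 338 to 592 CPM and *Spp1* from 738 over 896 to 609 CPM. *Lcn2* ran from 481 to 1585 CPM in iWAT and from 572 to 1737 CPM in eWAT.

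The cells with the highest level of another leading gene were members only in part. Of the top 10% of cells by *C3*, 53.6% were members in iWAT and 55.9% in eWAT. The shares were 50.3% and 45.5% for *Dcn*, 42.2% and 51.7% for *Lcn2* and 34.5% and 38.4% for *Hp*. By *Serpina3n* and *Chl1* they were 41.4% and 38.9% in iWAT and 27.7% and 16.4% in eWAT. In eWAT those top 10% reached down to cells at 0 CPM, which were ordered by barcode. For *Gsta4* the share was 0.786% in iWAT and 4.64% in eWAT.

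Markers of stromal progenitors were on in the members: 3 or more of 11 had a UMI in 100% of iWAT members and 94.9% of eWAT members, against 99.1% and 93.7% of the *Saa3*-low cells, and 8 of 11 were at least 1.5-fold higher in both. *Pdgfra*, the receptor gene that marks adipose progenitors, was at 435 against 171 CPM in iWAT and 136 against 89.9 CPM in eWAT. Of the 3 others, *Cd34* was at 16.7 against 25.5 CPM in iWAT and 6.44 against 4.88 CPM in eWAT, *Thy1* at 70.0 against 90.8 CPM in iWAT and 18.0 against 22.6 CPM in eWAT, and *Pdgfrb* within 1.5-fold in both. In iWAT members the summed levels of 10 endothelial, 12 immune and 10 mesothelial markers were 30.5, 17.3 and 2.79 CPM, and 3 or more markers of one such type were found in at most 1 member. Pericyte markers summed to 105 CPM in iWAT members and 16.5 CPM in the *Saa3*-low cells, of which *Ndufa4l2* alone gave 91.5 and 5.96 CPM, and 3 or more of 8 were found in 1 member. Adipocyte markers, given below, were also higher in iWAT members.

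In eWAT members the summed immune, pericyte, mesothelial and adipocyte markers were higher. Immune markers summed to 48.6 against 15.4 CPM, with the macrophage gene *Lyz2* at 21.9 against 0.839 CPM, and 3 or more of 12 were found in 3 members. Pericyte markers summed to 48.5 against 22.9 CPM, and 3 or more of 8 were found in 2.48% of members and 2.17% of the *Saa3*-low cells. Of the 76 eWAT cells with 3 or more of 10 mesothelial markers (mesothelium is the lining of the visceral fat pad), 50 were members, which is 7.74% of members against 0.186% of the *Saa3*-low cells. The list summed to 107 CPM in members and 25.5 CPM in the *Saa3*-low cells. These 50 cells had 12373 CPM of *Saa3*, 5516 CPM of *Slpi* and 132 CPM of the mesothelial gene *Upk3b*. They had 47.1 CPM of *Lcn2* and 62.2 CPM of *Hp*, against 1026 and 1951 CPM in the other 596 eWAT members. They held 57.9% of the *Slpi* UMIs of eWAT members, and the other members still had 320 CPM of *Slpi* against 102 CPM in the *Saa3*-low cells without such markers.

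At least 3 of 8 adipocyte markers were found in 132 eWAT members (20.4%) and 2.85% of the eWAT *Saa3*-low cells, and in 29 iWAT members (3.80%) and 0.655% of the iWAT *Saa3*-low cells. The list summed to 6847 CPM in eWAT members and 1474 CPM in the *Saa3*-low cells, and to 1234 and 271 CPM in iWAT. In the 132 eWAT members *Hp* was at 6504 CPM and *Lcn2* at 2236 CPM, against 674 and 643 CPM in the other 514 members. The related genes *Saa1* and *Saa2*, named here after their values were seen, were at 324 and 360 CPM against 5.88 and 7.92 CPM, so that 93.0% and 91.7% of their UMIs in eWAT members lay in those 132 cells. *C3* was at 513 and 391 CPM in those groups, and *Dcn* was at 338 CPM in the 132 cells and 1065 CPM in the others. The 734 iWAT members without such markers had 21624 CPM of *Saa3*, 772 CPM of *Lcn2*, 560 CPM of *Hp* and 40.7 CPM of *Apoe*, against 21840, 928, 596 and 90.7 CPM in all iWAT members. Without all cells that carried markers of another type, the eWAT log2 ratios were 6.84 for *Serpina3n*, 6.97 for *Chl1*, 4.68 for *Lcn2* and 3.98 for *C3*. That setting left out 4523 of the 6464 eWAT cells, 407 members among them. Members and *Saa3*-low cells were then picked anew among the 1941 cells left, so these ratios describe differently chosen cells. With the adipocyte and smooth muscle lists not used to remove cells, the ratios were 5.75, 6.89, 4.58 and 3.22 in the same order.

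Smooth muscle markers were lower in members of both libraries. At least 3 of 6 were found in 1.18% of iWAT members against 6.61% of the *Saa3*-low cells and in 36.1% against 62.8% in eWAT. Endothelial markers, 3 or more of 10, were in 0.131% against 1.15% in iWAT and 4.33% against 7.05% in eWAT. Between both DFAT libraries 19 cell barcodes were shared, none of them by members of both.

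The SVF cultures held few such cells. A *Saa3* UMI was found in 30 of 7424 iWAT SVF cells (0.404%, exact interval 0.273% to 0.576%) and in 635 of 6745 eWAT SVF cells (9.41%, 8.73% to 10.1%). Of the latter, 177 were above the lower limit of the eWAT members and 18 above that of the iWAT members, with a highest cell of 31714 CPM. In iWAT SVF 1 cell was above the eWAT limit and 0 above the iWAT limit. *Saa3* was at 117 CPM in the free RNA of eWAT SVF and at 80.9 CPM over its cells. Of the 10 genes highest in DFAT members, 8 were at 5 CPM or more over all eWAT SVF cells. Of these, 6 were at least 1.5-fold higher in cells with a *Saa3* UMI than in those without, where 8.10% of 9750 genes were. *Lcn2* and *Enpp2* were under 5 CPM over all eWAT SVF cells. In cells with and without a *Saa3* UMI they were at 5.28 and 2.98 CPM and at 0.861 and 0.394 CPM. *Serpina3n* was at 5.22 and 1.65 CPM and *Chl1* at 0.0574 and 0.0222 CPM in these groups. Of the 8 genes lowest in DFAT members, 0 were lower there, where 0.995% of all genes were, and 1, *Prkg2*, was higher, at 13.5 against 7.41 CPM. With 2 or more *Saa3* UMIs asked for, in 350 cells, 7 of the 8 highest genes were higher and 1, *C1qtnf7*, was lower, and 6 of the 8 lowest genes were lower and *Prkg2* higher, where 17.9% of the 9750 genes were higher and 9.35% lower. *Slpi* was at 1153 CPM in the eWAT SVF cells with a *Saa3* UMI and 23.3 CPM in those without. In iWAT SVF, with 30 such cells, 3 of 6 of the highest genes at 5 CPM or more were higher, where 5.94% of 9792 genes were, and 2 of the 8 lowest genes were lower, where 7.65% of genes were, and 1 higher. The iWAT SVF file names an older Cell Ranger version, whose part in the low share was not tested.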

How the data were processed

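Single-cell libraries of 4 cultures of mouse adipose cells, 1 per depot and culture, were used. The deposited files hold raw UMI counts, which the authors obtained with Cell Ranger on mm10 with introns counted, empty droplets included. The labels name version 7.0.0, and the file headers 7.1.0 for 3 libraries and 4 for iWAT SVF. CellBender, DoubletFinder and Harmony were not run here.

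UMIs were summed over members and over the *Saa3*-low cells, ties broken by barcode, and scaled to CPM (13626445 and 101247996 UMIs in iWAT, 15205704 and 89353394 in eWAT). Ratios carry exact conditional binomial intervals, which cover counting error only. The simulated counts they were tried on had no spread between cells, as the intervals assume. They therefore cannot tell how the intervals do with such spread. A gene was counted as higher or lower at 1.5-fold and 5 CPM. Named were the marker genes, the 10 highest and 8 lowest in both libraries at 20 CPM or more, 3 each way between libraries, and 2 each way per list of 24. The members and lists were chosen with earlier results of these data known. List symbols without a match (8) were left out. Doublets were removed only as an alternative. Tools were scanpy 1.11.5, scipy 1.17.1, numpy 2.4.6 and pandas 2.3.3 under Python 3.11.15.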

Additional observations from a re-analysis of the deposited data

Results flagged for a closer look

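Of the genes picked by the naming rules, 6 had counting intervals of the log2 ratio (members over the *Saa3*-low cells) on opposite sides of 0 in iWAT and eWAT DFAT. Cell type markers were outside those rules, and *Cd34*, for example, was at -0.61 in iWAT and 0.40 in eWAT. With 1 library per depot the difference was not tested. Genes with such intervals were not counted over all genes, so 6 is not read as many or few. The intervals cover counting error only, so ratios near 0 can be among them. *Slpi*, for a protease inhibitor, was at -0.48 in iWAT and 2.65 in eWAT, and *Igfbp5*, for an IGF-binding protein, at -2.22 and 1.58. The chemokine gene *Cxcl3* was at -0.35 and 0.95. Closer to 0 were the class I gene *H2-T22* at -0.20 and 0.36, *Ebf2*, for an adipogenic transcription factor, at -0.25 and 0.12, and *Calr*, for the chaperone calreticulin, at 0.15 and -0.038. An alternative chosen after seeing the data left out cells that carried endothelial, immune, mesothelial, pericyte or Schwann-like markers. With members and *Saa3*-low cells picked anew there, the eWAT ratio was 1.60 for *Slpi*, 0.56 for *Igfbp5* and 1.12 for *Cxcl3*. The 393 *Igfbp5* UMIs of eWAT members lay in 43 cells.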

How the results depend on the processing

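No paired analysis was possible because there was 1 library per group and no test. Of 2825 alternative values for the named genes and list medians past 1.5-fold, 2820 kept their direction and 2743 stayed past the fold. The 5 others were *Cdc45* in iWAT, 0.33 in cells low in cycle genes, *Cdh13* in eWAT, 0.36 without cells with other markers and 0.26 when the smooth muscle and adipocyte lists, shared with stromal cells, were kept, *Cebpa* in eWAT, -0.20 without cells with other markers, and *Plxna4* in iWAT, -0.14 with depth-weighted cells. The stromal-shared setting and that of all eWAT cells without *Saa3* were chosen after seeing the data. When each UMI was put at random in 1 of 2 parts, 92.8% of iWAT and 94.7% of eWAT members picked in 1 part were also in the top 10% of the other. Cells with other markers made 4523 of the 6464 eWAT cells. In each setting that left cells out, members and *Saa3*-low cells were picked anew among the cells left. eWAT *Chl1* and *Serpina3n* had few UMIs in the *Saa3*-low cells. The setting less 10% free RNA took more than the 4.45% that would account for all *Saa3* of the iWAT *Saa3*-low cells. It set that *Saa3* level and the level of *Serpina3n* in the eWAT *Saa3*-low cells to 0, so *Serpina3n* has no eWAT ratio there. The ratios of that setting over low levels are not read as estimates. The cause was not tested for the following. Chl1 log2 ratio, eWAT DFAT, 6.36, came to 7.19 after thinning to 5000 UMIs, 8.10 less 10% free RNA, 7.53 for the top 5% and 5.24 for the top 20%. Chl1 log2 ratio, iWAT DFAT, 4.92, came to 4.69 with equal weight per cell, 4.69 after thinning to 5000 UMIs, 4.00 with depth-weighted cells, 5.89 less 10% free RNA, 5.00 without doublets, 5.13 for the top 5%, 4.44 for the top 20%, 2.86 against all other cells, 4.81 without cells with other markers, 3.55 in cells low in cycle genes and 4.80 over separate parts of the UMIs. Saa3 share (%) in eWAT SVF, 9.41, came to 5.2 after thinning to 5000 UMIs and 5.19 at 2 or more UMIs. Saa3 share (%) in iWAT SVF, 0.404, came to 0.135 after thinning to 5000 UMIs and 0.0943 at 2 or more UMIs. Saa3 CPM of *Saa3*-low cells, iWAT DFAT, 156, came to 161 with equal weight per cell, 163 after thinning to 5000 UMIs, 175 with depth-weighted cells, 0 less 10% free RNA, 144 without doublets, 153 from 500 UMIs, 1614 against all other cells, 168 without cells with other markers, 468 in cells low in cycle genes, 171 over separate parts of the UMIs, 162 per UMI other than Saa3 and mitochondrial and 161 with the stromal-shared lists kept. Saa3 CPM of members, eWAT DFAT, 7626, came to 9562 with equal weight per cell, 9660 after thinning to 5000 UMIs, 8360 less 10% free RNA, 7906 without doublets, 7431 from 500 UMIs, 14485 for the top 5%, 3732 for the top 20%, 11262 without cells with other markers, 12212 in cells low in cycle genes, 7896 per UMI other than Saa3 and mitochondrial and 6878 with the stromal-shared lists kept. Saa3 CPM of members, iWAT DFAT, 21840, came to 22658 with equal weight per cell, 22578 after thinning to 5000 UMIs, 23876 less 10% free RNA, 22549 without doublets, 21681 from 500 UMIs, 29887 for the top 5%, 14543 for the top 20%, 28831 in cells low in cycle genes, 21718 over separate parts of the UMIs, 23121 per UMI other than Saa3 and mitochondrial and 21938 with the stromal-shared lists kept. Serpina3n log2 ratio, eWAT DFAT, 5.77, came to 6.78 after thinning to 5000 UMIs, 6.57 for the top 5%, 4.85 for the top 20%, 4.69 against all other cells and 6.84 without cells with other markers. Serpina3n log2 ratio, iWAT DFAT, 3.72, came to 3.58 with equal weight per cell, 3.57 after thinning to 5000 UMIs, 2.93 with depth-weighted cells, 4.36 less 10% free RNA, 3.93 for the top 5%, 3.31 for the top 20%, 2.38 against all other cells and 2.68 in cells low in cycle genes. Higher in members of both libraries, 537, came to 332 for the top 20%, 253 at 20 CPM or more and 2006 over all genes with a UMI. Higher in members, eWAT DFAT, 833, came to 505 for the top 20%, 383 at 20 CPM or more and 4571 over all genes with a UMI. Higher in members, iWAT DFAT, 1232, came to 706 at 20 CPM or more and 4069 over all genes with a UMI. Lower in members of both libraries, 168, came to 332 after thinning to 5000 UMIs, 537 for the top 5%, 42 for the top 20%, 78 at 20 CPM or more, 689 over all genes with a UMI, 477 without cells with other markers and 325 in cells low in cycle genes. Lower in members, eWAT DFAT, 292, came to 602 after thinning to 5000 UMIs, 823 for the top 5%, 94 for the top 20%, 136 at 20 CPM or more, 1594 over all genes with a UMI, 783 without cells with other markers and 710 in cells low in cycle genes. Lower in members, iWAT DFAT, 1693, came to 1038 at 20 CPM or more, 3608 over all genes with a UMI and 971 in cells low in cycle genes.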

Other observations

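Of the 9445 genes at 5 CPM or more in both DFAT libraries, 7 were at least 1.5-fold apart from the *Saa3*-low cells in opposite directions. They are named here after their values were seen. *Ank3*, for the membrane adaptor ankyrin G, had log2 ratios of 0.79 in iWAT and -0.68 in eWAT. The other 6 were lower in iWAT members and higher in eWAT members. These were *Igfbp5*, *Aldh1a3*, for a retinoic acid synthesising enzyme, at -2.17 and 0.82, *Bmp6*, for a bone morphogenetic protein, at -2.10 and 0.78, *Ccdc85a* at -1.92 and 0.82, *F11r*, for a junctional adhesion molecule, at -0.64 and 1.03, and *Kcnq5*, for a potassium channel, at -0.65 and 0.63. The difference between the libraries was not tested. In the alternative without endothelial, immune, mesothelial, pericyte or Schwann-like markers, given above, the eWAT ratio of *Igfbp5* was 0.56, short of 1.5-fold. The other genes were not read in that alternative.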
